A study of Mus musculus with 1470 samples.

Results

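The cytosolic ribosomal protein genes are the genes that encode the protein subunits of the ribosome in the cytoplasm. They were taken from a table of mouse liver single cells by symbol: every row that starts with Rpl or Rps followed by a digit, and Rpsa, without the Rps6k kinase genes and without pseudogene symbols that hold "-ps". The rule chose 84 of 14915 rows, which carry 83 symbols because Rpl30 has 2 rows, 50 of them Rpl (large subunit) and 34 Rps (small subunit). It used no expression value, but it was chosen with earlier results of these data known. Of the chosen rows, Rps19bp1 encodes a binding partner of Rps19 and not a ribosomal protein, and Rps4l is annotated as non-coding RNA.

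The cells were liver non-parenchymal cells, which exclude hepatocytes, of male wild-type C57BL/6J mice. There were 3 mice on a normal diet (ND1 to ND3) and 3 mice on a high-fat diet (HFD1 to HFD3), which was fed for 9 weeks from an age of 5 weeks. The livers were digested with collagenase, hepatocytes were pelleted out, and live single cells were index-sorted. Sequencing libraries were made by Smart-seq2, which covers whole transcripts and was used without unique molecular identifiers. The table holds 1470 cells. The mouse was the replicate throughout.

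Each ribosome is built from a small subunit, which reads the mRNA, and a large subunit, which joins amino acids, and the proteins of both are made in matched amounts. Their mRNAs are among the most abundant of most cells and start with a terminal oligopyrimidine (TOP) tract, through which the mTOR pathway controls how strongly they are translated. In lymphocytes ribosome production is known to rise with growth and activation, and mutations of single members, such as human RPS19, cause anaemia.

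No value was read as a count. Expression was given as RPKM, reads scaled by the length of the gene and by the mapped reads of the cell, so it is relative to all other mRNA of the same cell and does not measure ribosomes or RNA per cell. The steps between low RPKM values allowed the number of reads on genes to be estimated, with a median of 128396 per cell over the 1356 cells where the steps could be read. The median over cells was between 87177 in HFD2 and 201965 in HFD1. At the median depth 1 read on a gene of 1000 bases was worth 7.79 RPKM, so a low mean in the text reflects few reads in few cells. Cells of HFD2 had the fewest genes detected in each of the 7 classes with at least 3 of its cells, and its cells are named by another scheme than those of the other mice. No cell name was used more than once, and 0 pairs of cells held identical values.

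Cells were grouped by clustering on variable genes, with the ribosomal protein genes left out, and named from marker genes. The largest classes were Kupffer-like cells (KC-like), 459 endothelial-like, T-cell-like and 247 B-cell-like cells, with at least 16 cells of each in every mouse. The smaller classes were 85 cells like monocyte-derived macrophages or dendritic cells (MoMac-DC-like), 52 NK-like, 35 hepatocyte-like and 30 erythrocyte-like cells. Assignment of single cells by markers alone gave the same class for 93.7% of the 1360 cells that could be named both ways. Kupffer cell markers summed to 3.34 to 6.10% of RPKM in KC-like mice and at most 0.15% elsewhere, and endothelial markers to 1.61 to 2.20% in endothelial-like mice and at most 0.13% elsewhere. Markers of other cells were not at 0. In MoMac-DC-like cells the 8 neutrophil markers summed to between 0.906 and 3.89% of RPKM, above the 0.484 to 0.814% of the macrophage markers of that class, and the 7 plasmacytoid dendritic cell markers to between 0.140 and 0.741%. The 10 hepatocyte markers summed to between 0.193 and 0.866% of the RPKM of KC-like cells and between 0.121 and 0.657% in endothelial-like cells of the 6 mice. The same sum lay between 0.00571 and 0.0496% in T-cell-like and between 0.0315 and 0.225% in B-cell-like cells, and no marker of the list was at 0 in every cell of a class. The part of the hepatocyte RNA in the class differences below was not tested.

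The level of the 84 rows spanned almost the whole range of the data. Rpl8, which lies close to the catalytic centre of the large subunit, had a mean log2(RPKM + 1) of 9.43 over all 1470 cells, and Rps14, a protein of the small subunit near the path of the mRNA, of 9.32. Rps9 was at 9.12, Rpl13a at 9.08 and Rps3 at 8.53. Each of these rows was at 1 RPKM or more in over 97% of cells, from 97.3% for Rps9 to 98.98% for Rps3.

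At the other end, 29 of the 84 rows had a mean under 1. The lowest were Rpl3l at 0.02, Rpl39l at 0.03, Rpl10l at 0.06 and the second row of Rpl30 at 0.07, which holds the longer of its transcripts. Among those between 0.13 and 0.88 were Rpl24, Rpl28, Rpl21, Rpl23a, Rpl27, Rpl36a, Rps27, Rpl26, Rps12, Rps29, Rpl12, Rps28, Rpl15, Rpl36, Rpl9, the first row of Rpl30, Rpl10, Rps23, Rps4l, Rpl34, Rpl17, Rpl31, Rps6 and Rps19bp1. No row was at 0 in every cell. Most of these genes encode essential subunits that every ribosome holds, as Rps6, Rpl10 and Rpl24 do.

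Ribosomal protein genes have many processed copies in the genome, and the authors kept only reads that map to a single place. For each row the share of 50-base windows of its coding sequence that occur in no other annotated gene of the mouse genome (GRCm38, GENCODE M21) was therefore computed. The 3 windows here show both ends of this scale, that of Rpl8 from a highly expressed gene and found in 0 other genes, and the others from genes without any unique window.
Rpl8, chr15:76904313-76904362, plus strand: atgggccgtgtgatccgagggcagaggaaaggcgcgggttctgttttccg
Rpl10, chrX:74271841-74271890, plus strand: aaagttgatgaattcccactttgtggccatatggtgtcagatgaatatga
Rpl10a, chr17:28328997-28329046, plus strand: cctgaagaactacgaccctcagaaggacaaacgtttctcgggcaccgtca
The window of Rpl10 was found in 10 other annotated genes and that of Rpl10a in 3.

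Unique windows made up 91.9% of Rps3, 91.3% of Rpl8 and 79.7% of Rpl4, and 0.0% of 30 rows. Of these 30 rows, 19 had a mean under 1, and their median level was 0.65. Of the 30 rows with some but at most 20% unique windows, 4 had a mean under 1 and the median was 3.80. The median was 5.37 for the 6 rows above 20 and up to 50%, and 7.17 for the 18 rows above 50%. The 5 rows with a mean under 1 in that top group were Rpl3l, Rpl39l, Rpl10l, Rps4l and Rps19bp1, of which the first 4 are named as copies of another gene. Over the 84 rows Pearson's r between level and unique share was 0.40 and Spearman's rho 0.47, as a description across genes that share the same cells. Rpl41, with 0.0% unique coding windows, had a mean of 6.05. The length behind 1 read, estimated from the steps of the 31 rows above 0 in 100 to 600 of the cells, had a median ratio of 0.98 to the whole annotated transcript length and was within 10% of it for 18 of them. Whether the dropped reads account for the low rows was not tested, and a low row is not taken here as a low amount of its protein or mRNA. A comparison of 1 row between classes uses the same sequence in each class.

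**Figure D1:**
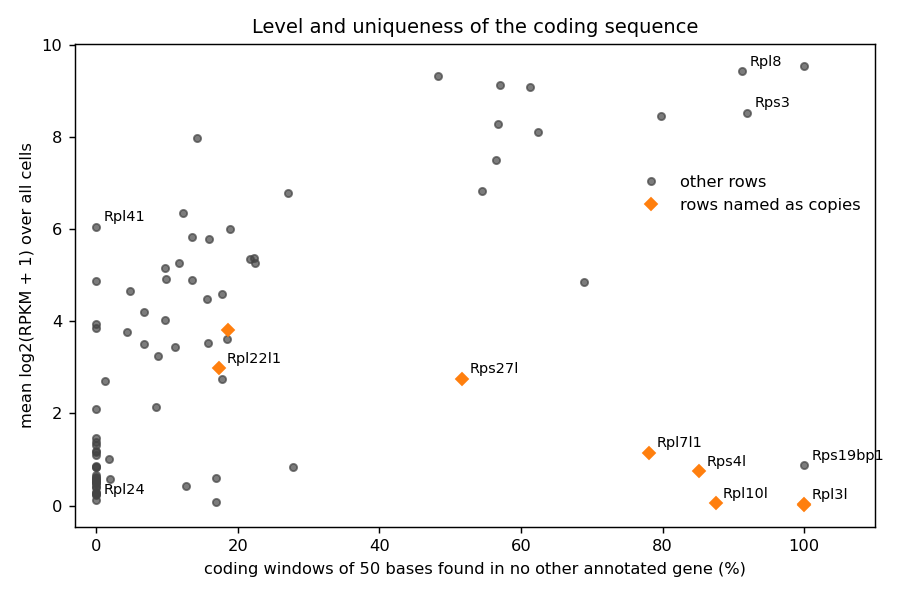
Each point is 1 of the 84 rows, with the percentage of its 50-base coding windows found in no other annotated gene on the x axis and its mean log2(RPKM + 1) over 1470 cells on the y axis. Rows named as copies of another gene are orange diamonds. Most rows at 0% lie low, and the rows over 50% lie above 6 apart from Rpl22, the copies and Rps19bp1.

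Promoter sequences (RefSeq, GRCm38.p6, 250 bases before to 50 after each start) were found for 63 of the 83 symbols. Since a TOP mRNA starts with C followed by pyrimidines, the bases at the start were searched for a C with a run of at least 5 pyrimidines, which 12 of the 63 promoters had (19.05%), against 3.01% of all 27025 genes with a promoter. The 4 starts shown here (10 bases before to 20 after the start) are of members that recur in the comparisons below or, for Rpl15, hold the longest run, and capitals mark the run from the first transcribed base.
Rps10, chr17:27635225-27635254, minus strand: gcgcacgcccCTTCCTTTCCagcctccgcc
Rps18, chr17:33955646-33955675, minus strand: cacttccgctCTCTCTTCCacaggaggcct
Rpl38, chr11:114668570-114668599, plus strand: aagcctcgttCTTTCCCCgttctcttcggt
Rpl15, chr14:18270967-18270996, minus strand: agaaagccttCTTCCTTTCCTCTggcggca
The word CTTTCC, on the transcribed strand within 20 bases of the start, was in 17.5% of the 63 promoters and 2.30% of all. On either strand of the whole promoter, CCGGAAG (a word bound by Ets factors such as Gabpa) was in 39.7% against 9.93%, CCATCTT (the core of the Yy1 word) in 15.9% against 7.28%, and TATAAA in 9.52% against 15.7%. CTTTCC can overlap the pyrimidine run, and the annotated start may differ from the start used in these cells.

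Summed over the 84 rows, ribosomal protein mRNA took the largest share of RPKM in T-cell-like and B-cell-like cells. T-cell-like cells gave 4.14, 5.13 and 3.90% in ND1 to ND3 and 3.69, 2.71 and 3.80% in HFD1 to HFD3, with a mean of 3.89 ± 0.78% (SD, n = 6 mice). B-cell-like cells gave 3.65, 4.25 and 4.43% in ND1 to ND3 and 3.54, 3.004 and 4.09% in HFD1 to HFD3, with a mean of 3.83 ± 0.53%. The 2 classes overlapped, and HFD2 was the lowest mouse in both.

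KC-like cells were at 1.12, 1.27 and 1.29% in ND1 to ND3 and at 1.07, 0.96 and 1.60% in HFD1 to HFD3, with a mean of 1.22 ± 0.22%. Endothelial-like cells were at 1.35, 1.48 and 1.13% in ND1 to ND3 and at 1.05, 0.78 and 1.66% in HFD1 to HFD3, with a mean of 1.24 ± 0.32%. Every mouse value of T-cell-like and B-cell-like cells lay above every value of KC-like and endothelial-like cells. Within a mouse, the ratio of T-cell-like to KC-like cells was 2.38 to 4.05, and that of B-cell-like to KC-like cells 2.56 to 3.45. Against endothelial-like cells the ratios were 2.28 to 3.51 and 2.46 to 3.94. The ratio of T-cell-like to B-cell-like cells was above 1 in 3 of 6 mice. No test was run on these sums.

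NK-like cells (mean 2.20 ± 0.42%) and MoMac-DC-like cells (2.12 ± 0.24%) lay between these classes. NK-like cells were at 0.42 to 0.73 times the share of T-cell-like cells of the same mouse, and MoMac-DC-like cells at 1.40 to 2.09 times that of KC-like cells. Both of the 2 T-cell-like clusters (means over cells of 3.72 and 3.89%) and both B-cell-like clusters (3.004 and 3.98%) were above both KC-like clusters (1.32 and 1.06%) and both endothelial-like clusters (1.28 and 0.92%). The median number of reads was 153973 in T-cell-like, 122330 in B-cell-like, 123068 in endothelial-like and 96037 in KC-like cells, and the part of read depth in the class differences was not tested. Across the cells of a class, Spearman's rho between the share and the number of genes detected was 0.32 in T-cell-like and B-cell-like, 0.16 in KC-like and 0.02 in endothelial-like cells (247 to 459 cells a class).

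**Figure D2:**
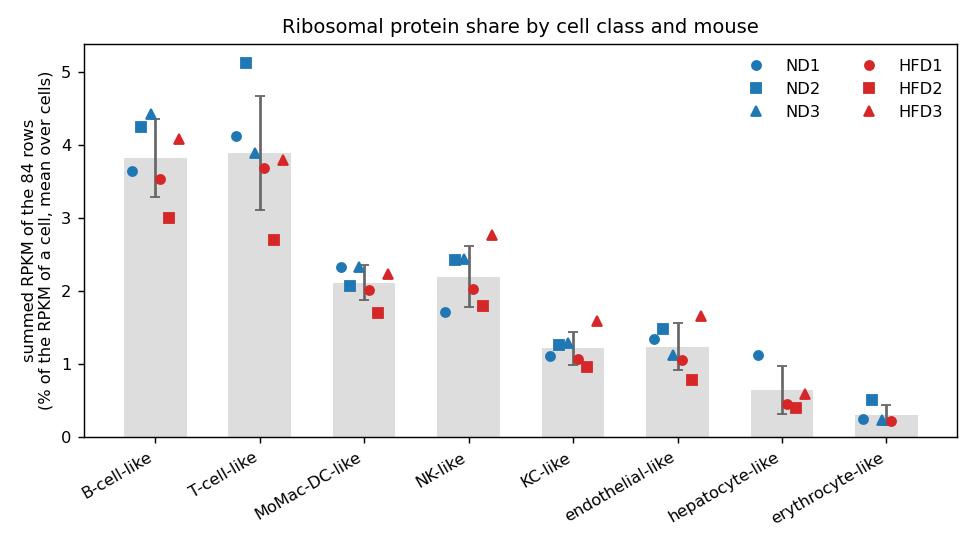
Summed RPKM of the 84 rows as a percentage of all RPKM of a cell, averaged over the cells of a class in each mouse. Each symbol is 1 mouse with at least 3 cells of the class, and the bar and its error bar are the mean and SD over mice. T-cell-like and B-cell-like mice sit between 2.71 and 5.13%, and KC-like and endothelial-like mice between 0.78 and 1.66%.

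Single rows were compared between classes on the mean log2(RPKM + 1) per class and mouse with limma, which was fitted to all 4073 genes with a mean of at least 1, with the mouse as a block and Benjamini-Hochberg adjustment over all of them. Of the 84 rows, 55 passed that level filter. It averages over all classes, so a row high in 1 class can pass through it. Rpl5, Rpl10a, Rpl11, Rpl19, Rpl27a, Rps25 and Rps27a had means under 1 in both KC-like and endothelial-like cells. They passed only through T-cell-like and B-cell-like cells. They are counted below, but their calls against KC-like and endothelial-like cells are partly set by the filter and are no support. A difference on this scale also reflects how many cells are at 0 and is not the log2 fold of the averaged RPKM.

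Against KC-like cells, 53 of the 55 tested rows were higher in T-cell-like cells and 0 lower at an adjusted p under 0.05. Of all genes tested, 45.9% were higher and 15.9% lower. The median difference was 2.495 for the rows and 0.46 for all genes. The mouse values did not overlap, with T-cell-like cells higher, for 39 rows, against 10.7% of all genes, and lower for 0 rows, against 7.14%. Against endothelial-like cells 53 were higher and 0 lower in T-cell-like cells (37.9 and 20.6% of all genes), with a median of 3.10 against 0.28, and 46 did not overlap (12.2%).

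In B-cell-like cells, 52 of the 55 rows were higher than in KC-like cells and 1 lower (24.9 and 20% of all genes), with a median difference of 2.09 against 0.06 for all genes. The B-cell-like mice lay above without overlap for 35 rows (6.36%) and below for 0 (6.87%). Against endothelial-like cells 53 were higher and 1 lower (20.4 and 25.6%), with a median of 2.58 against -0.05, and 40 did not overlap (8.13%). The row that was lower was Rps27l in both. These 4 comparisons share their class means in pairs, so they are not independent of each other. When the RPKM was averaged before the logarithm, the median fold of the rows was 2.83 for T-cell-like and 2.46 for B-cell-like over KC-like cells, and 3.68 and 3.32 over endothelial-like cells. These folds are smaller than the median differences on the log2 scale would give.

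**Figure D3:**
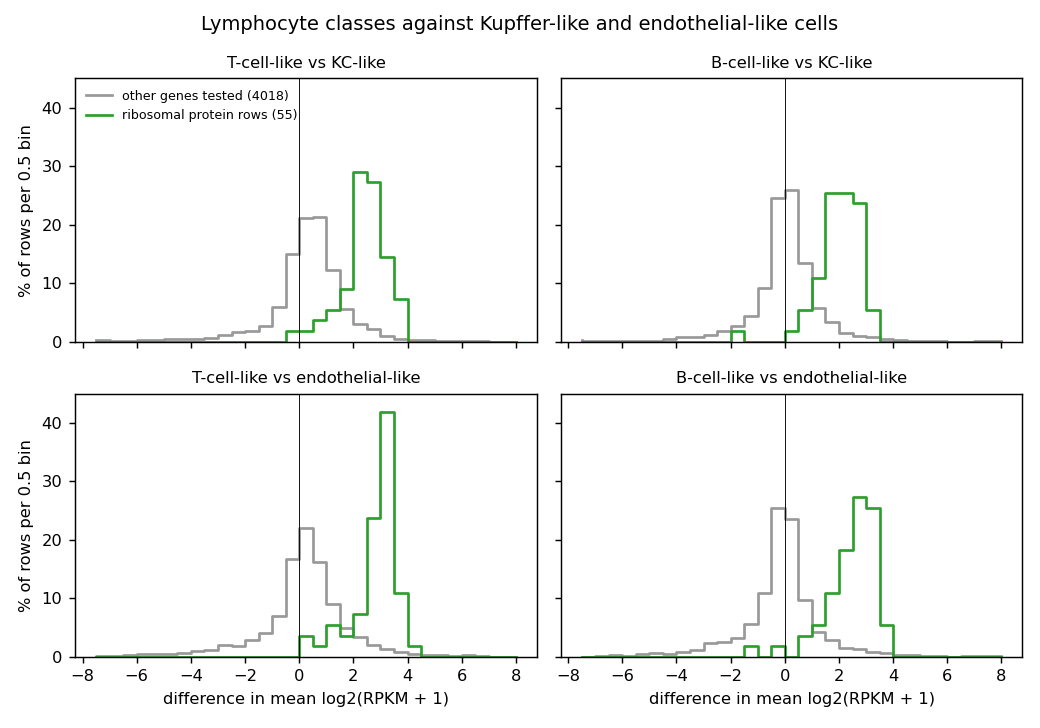
Distribution of the differences in mean log2(RPKM + 1) between classes for the 55 tested ribosomal protein rows (green) and the other 4018 genes tested (grey), as percentages of rows per bin of 0.5. In all 4 panels the green line has its peak between 1.5 and 3.5 and the grey line has its peak between -0.5 and 1.

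Rpl13a, one of the rows with the highest means, was at 11.05, 11.29 and 11.06 in T-cell-like cells of ND1 to ND3 and at 10.88, 10.87 and 11.17 in HFD1 to HFD3. In KC-like cells it was at 8.48, 7.90 and 8.27 and at 7.93, 7.39 and 8.55. The lowest T-cell-like mouse lay above the highest KC-like mouse, with HFD2 the lowest of the KC-like values. The difference of the means was 2.97 ± 0.21 (SE; limma adjusted p = 8.34e-14), and in B-cell-like cells (10.69 to 11.12) it was 2.75 ± 0.21 (limma adjusted p = 6.85e-13). Other rows of high mean had differences between T-cell-like and KC-like cells of 2.63 for Rps3, 2.52 for Rpl8, 2.41 for Rps14 and 1.92 for Rps9, and none overlapped.

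Among the 55 rows, Rpl18, Rps7 and Rps10 had the smallest adjusted p between T-cell-like and KC-like cells. Rpl18, a large subunit protein, was at 7.92, 8.21 and 7.72 in T-cell-like cells of ND1 to ND3 and 7.37, 6.89 and 7.58 of HFD1 to HFD3. KC-like cells of the same mice had 3.83, 3.89 and 3.77, and 3.39, 3.14 and 4.09. Every T-cell-like mouse was far above every KC-like mouse, with a difference of 3.93 ± 0.22 (limma adjusted p = 3.02e-16). Rpl18 was at 1 RPKM or more in 96.7% of T-cell-like and 61.5% of KC-like cells.

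Rps7, a small subunit protein, ranged from 6.43 to 7.60 in T-cell-like, 6.21 to 7.11 in B-cell-like, 3.02 to 3.91 in KC-like and 2.14 to 3.48 in endothelial-like mice. T-cell-like and B-cell-like mice were thus parted from KC-like and endothelial-like mice, with differences of 3.70 and 4.23 for T-cell-like and 3.43 and 3.96 for B-cell-like cells. Rps10, whose start is shown above, was at 6.16 to 7.03 in T-cell-like and 2.46 to 3.65 in KC-like mice, a difference of 3.53 ± 0.20. Against endothelial-like cells the smallest adjusted p after Rps7 and Rpl18 in T-cell-like cells was that of Rpl39, a small protein of the exit tunnel (6.09 to 9.22 against 2.24 to 5.76, a difference of 3.74). In B-cell-like cells it was those of Rps3a1 (3.15) and Rps26 (3.64) after Rps7.

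Rows of both subunits were higher in T-cell-like and B-cell-like cells. Between T-cell-like and KC-like cells 29 of 30 tested Rpl rows were higher (median difference 2.44) and 24 of 25 Rps rows (2.68). Between B-cell-like and KC-like cells 28 of 30 Rpl rows were higher (1.86) and 24 of 25 Rps rows (2.37). Of all 4073 genes tested, 1869 were higher in T-cell-like than in KC-like cells (median difference 0.46). In B-cell-like cells 1016 of them were higher than in KC-like cells (0.06). The medians of Rpl and Rps rows were not tested against each other. By level, the median difference between T-cell-like and KC-like cells was 1.48 for the 14 rows with a mean from 1 to 3 over all cells, 2.75 for the 26 rows from 3 to 6 and 2.52 for the 15 rows above 6.

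The order of the 4 class means was much the same from row to row. T-cell-like cells had the highest mean for 48 of the 55 rows, B-cell-like cells for 6 and KC-like cells for 1, which was Rps27l. Endothelial-like cells had the lowest mean for 49 rows. Neighbours in that order often did not differ beyond the spread: T-cell-like cells were higher than B-cell-like cells for 20 rows and lower for 1 (32.6 and 8.47% of all genes), with a median of 0.40 against 0.31 for all genes. KC-like cells were higher than endothelial-like cells for 13 rows and lower for 0 (16.1 and 24.8%), with a median of 0.30 against -0.14, and 0 rows were without overlap in either direction (4.89 and 10.2%). Both counts moved widely with the processing, from 0 to 21 and from 3 to 20 over all settings tried, and the 1 row lower in T-cell-like cells was lost in most of them.

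Between T-cell-like and B-cell-like cells, Rps27l, Rpl3 and Rpl38 had the smallest adjusted p among the rows higher in T-cell-like cells. Rpl3, which reaches to the catalytic centre, was at 4.90 to 6.25 in T-cell-like and 3.78 to 5.54 in B-cell-like mice, a difference of 0.998 ± 0.22 (limma adjusted p = 0.00039). Rpl38, known for its part in the translation of Hox mRNAs, was at 3.02 to 7.35 and 1.84 to 5.93, a difference of 1.38 ± 0.33 (limma adjusted p = 0.00108), with HFD2 the lowest mouse in both classes. Both pairs of ranges overlapped. With RPKM averaged before the logarithm neither passed (0.56 for each, limma adjusted p = 0.14 for Rpl3 and 0.36 for Rpl38), and without the mouse as a block the adjusted p of Rpl38 was 0.155 (limma). Rps19, the gene affected in Diamond-Blackfan anaemia, was lower in T-cell-like (6.86 to 8.24) than in B-cell-like cells (8.16 to 8.82), with a difference of -0.67 ± 0.24 (limma adjusted p = 0.0263). This call was lost with a trend (limma adjusted p = 0.053), without the block (0.154), without ND3 (0.0719), HFD1 (0.0844) or HFD2 (0.0913), with a pseudocount of 0.1 (0.135), without the level filter (0.0578), in cells with at least 2000 genes (0.235) and with averaged RPKM (-0.36, adjusted p = 0.385). The only row without overlap was Rpsa, at 4.48 to 4.94 in T-cell-like and 3.56 to 4.27 in B-cell-like mice (5.6% of all genes above and 3.36% below without overlap), a difference of 0.70 ± 0.21.

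Between KC-like and endothelial-like cells, Rps9 (7.88 to 9.44 against 6.85 to 8.10), Rpl39 (3.39 to 6.54 against 2.24 to 5.76) and Rps26 (4.45 to 7.40 against 3.09 to 6.13) had the smallest adjusted p. Their differences were 1.33, 1.26 and 1.27 (limma adjusted p = 3.38e-06, 7.12e-06 and 5.07e-05). The ranges of all 3 overlapped, and without the mouse as a block the adjusted p was 0.121 for Rpl39 and 0.0692 for Rps26 (limma).

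**Figure D4:**
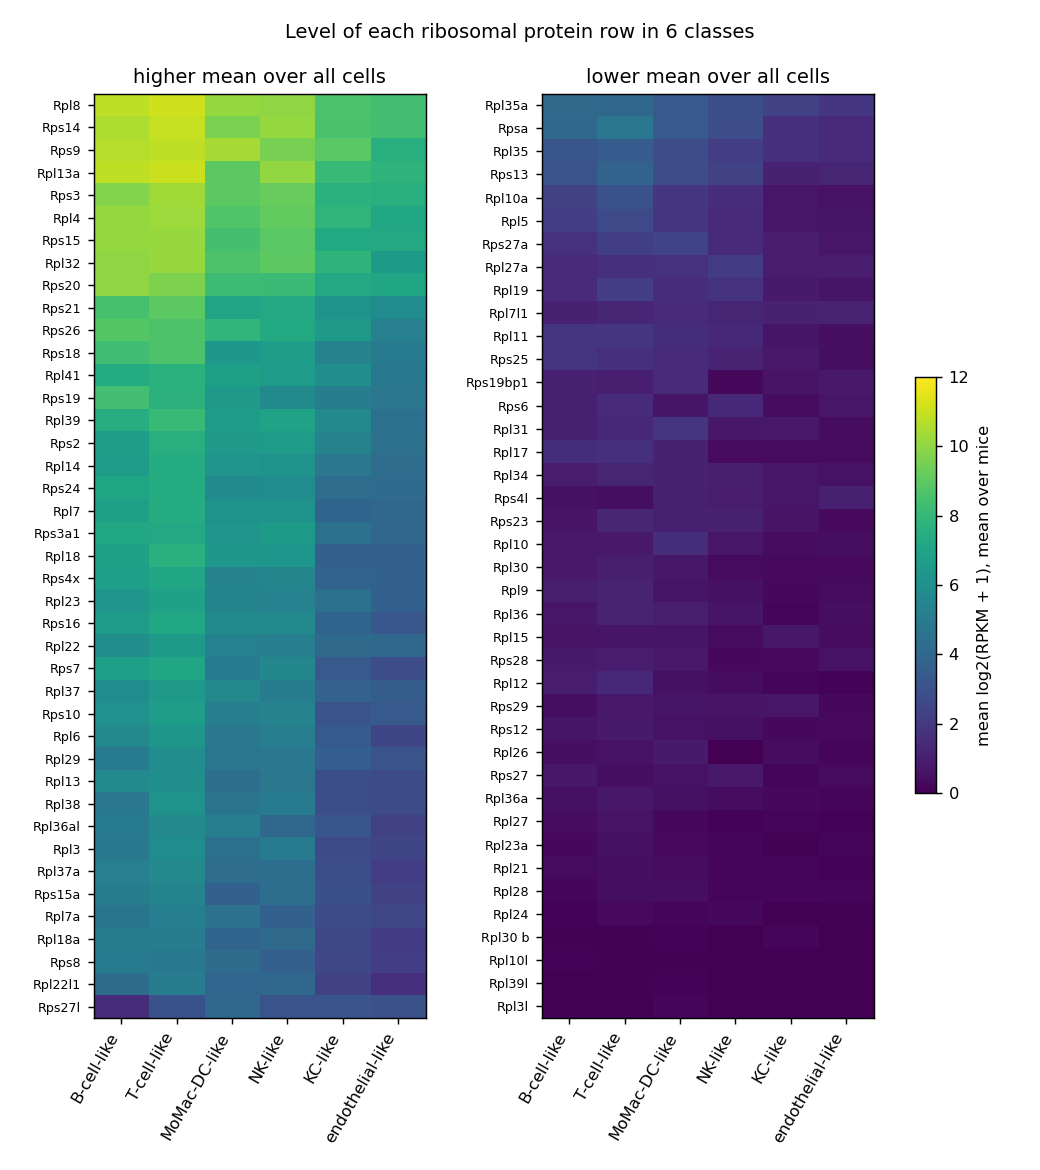
Mean log2(RPKM + 1) of the ribosomal protein rows (one per line, with a few rows not shown) in each of 6 classes, averaged over the mice, with brighter cells for higher means. "Rpl30 b" is the second Rpl30 row. Most rows that are bright in the T-cell-like and B-cell-like columns are darker in the KC-like and endothelial-like columns, and the low rows stay dark in every column.

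Rps27l and Rpl7l1 stood apart from the other 53 tested rows. Rps27l is a close copy of Rps27 and a target of p53. It was at 2.90, 3.35 and 3.43 in T-cell-like cells of ND1 to ND3 and at 3.20, 1.28 and 3.98 in HFD1 to HFD3. KC-like cells had 4.03, 2.97 and 3.63, and 3.08, 1.37 and 3.96. These ranges lay on top of each other, and the difference was -0.15 ± 0.27 (limma adjusted p = 0.648).

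In B-cell-like cells Rps27l was at 1.64, 1.75 and 1.71 in ND1 to ND3 and at 1.90, 0.53 and 1.62 in HFD1 to HFD3. It was the lowest of the 6 classes there, and HFD2 again was the lowest mouse. The difference was -1.65 ± 0.27 from KC-like (limma adjusted p = 6.55e-06) and -1.45 ± 0.27 from endothelial-like cells (limma adjusted p = 3.55e-05). T-cell-like cells were 1.498 ± 0.27 above B-cell-like cells (limma adjusted p = 3.88e-05). The share of cells at 1 RPKM or more was 25.1% in B-cell-like, 40.98% in T-cell-like, 47.9% in KC-like and 62.4% in MoMac-DC-like cells. Rps27 itself was at 0.16 to 0.84 in the 6 classes and has no unique window.

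Rpl7l1 encodes a factor of large subunit assembly that resembles Rpl7. Its mean was between 1.12 and 1.47 in all 6 classes. The differences of T-cell-like and B-cell-like from KC-like cells were 0.17 ± 0.22 and 0.01 ± 0.22 (limma adjusted p = 0.537 and 0.985). Rpl7 went from 3.87 in KC-like to 7.45 in T-cell-like cells.

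Of the other copies, Rpl22l1 and Rpl36al were higher in T-cell-like than in KC-like cells. Rpl22l1, the copy of Rpl22, had a mean of 5.10 in T-cell-like, 4.24 in B-cell-like, 2.35 in KC-like and 1.68 in endothelial-like cells. Rpl22, which is known to be needed for the development of alpha-beta T cells, went from 4.14 in KC-like to 6.53 in T-cell-like cells. The differences between T-cell-like and KC-like cells were 2.74 ± 0.28 and 2.39 ± 0.24. Rpl36al was at 5.64 in T-cell-like and 3.21 in KC-like cells, but its difference of 0.79 with averaged RPKM did not pass (limma adjusted p = 0.05). Rpl36a, which has no unique window, was at 0.22 to 0.78 in the 6 classes. Rps4x went from 3.82 to 7.06 and Rps4l from 0.75 to 0.45. Rpl10l, Rpl39l and Rpl3l, which are known from testis or muscle, had class means of at most 0.15 in the 6 classes.

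**Figure D5:**
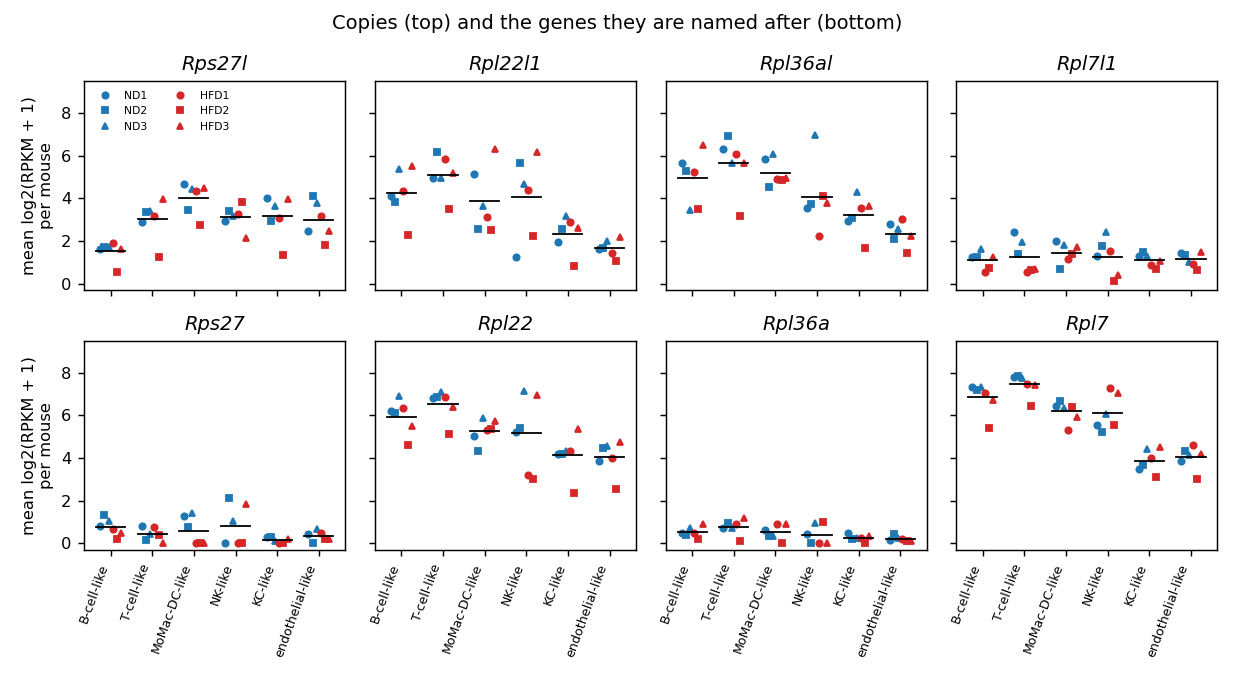
Mean log2(RPKM + 1) per mouse and class of 4 copies (top) and the genes they are named after (bottom), where each symbol is 1 mouse and the bar is the mean over mice. Rps27l is lowest in B-cell-like cells and Rpl7l1 stays near 1, whereas Rpl22l1, Rpl36al, Rpl22 and Rpl7 are higher in T-cell-like and B-cell-like than in KC-like and endothelial-like cells. Rps27 and Rpl36a are low, with class means of at most 0.84.

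Since nearly all rows moved together, each cell was also centred on the median of its own rows, as a description of which rows changed least. That median, over cells, was 5.13 in T-cell-like and 4.64 in B-cell-like cells, but 0.0 in KC-like and endothelial-like cells, where the middle row of a typical cell was not detected. It was 4.46 in MoMac-DC-like and 2.72 in NK-like cells. Centring therefore takes several units from a typical T-cell-like or B-cell-like cell and less from KC-like and endothelial-like cells, where the class mean of Rpl7, for example, went from 3.87 to 2.95 in KC-like cells. On that scale the 6 rows with the widest range of class means were Rps27l (4.63), Rpl7l1 (3.93), Rpl27a (3.31), Rps25 (2.99), Rpl11 (2.66) and Rps27a (2.58). Apart from the copies Rps27l and Rpl7l1 these are rows of low level, with 0.0 to 1.84% unique windows.

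Rpl11, which binds Mdm2 together with Rpl5 when ribosome assembly fails, was at 1.13 to 2.63 in T-cell-like and 0.30 to 1.12 in KC-like mice. The groups did not overlap, and the difference was 1.20 ± 0.21 (limma adjusted p = 1.17e-05). Rpl11, like Rps27a, Rps25 and Rpl27a below, passed the level filter only through T-cell-like and B-cell-like cells. The calls of these rows are therefore no support for a class difference. Rps27a, made as a fusion with ubiquitin, differed by 1.27 ± 0.23, with ranges of 1.13 to 3.02 and 0.49 to 1.39. Rps25 differed by 0.85 ± 0.24 and Rpl27a by 0.68 ± 0.24 (limma adjusted p = 0.00274 and 0.0129), and the latter did not pass between B-cell-like and KC-like cells (0.51, limma adjusted p = 0.0784). The ranges of the last 3 rows overlapped. With RPKM averaged before the logarithm none of these 3 passed, with 0.35 for Rps27a, 0.59 for Rps25 and -0.25 for Rpl27a (limma adjusted p = 0.587, 0.203 and 0.727). Rps25 did not pass in cells with at least 2000 genes (limma adjusted p = 0.0661), and Rpl27a did not without the mouse as a block (0.0585), without ND2 (0.0721) or without HFD1 (0.054).

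NK-like cells were compared with T-cell-like cells in a fit of 4202 genes that also held the smaller classes, in which 56 of the 84 rows were tested. In NK-like cells 44 rows were lower and 0 higher (10.4 and 2.62% of all genes), with a median difference of -1.21 against -0.18 for all genes, and 9 did not overlap (0.952%). Without the mouse as a block 21 rows were lower, and without ND1 27 were. The 10.4% of all genes belongs to the main fit, and the shares in these alternatives are not reported here. Rps19 was at 4.46 to 6.34 in NK-like and 6.86 to 8.24 in T-cell-like mice, with no overlap and a difference of -2.01 ± 0.27 (limma adjusted p = 7.26e-07). Rps18 followed with -1.90 and Rpsa, known also as a laminin receptor, with -1.85. Only 4 to 16 NK-like cells came from a mouse. Rps27l (0.11 ± 0.36) and Rpl7l1 (-0.02 ± 0.29) did not pass here either.

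MoMac-DC-like cells had 51 of the 56 rows higher than KC-like cells and 0 lower (37.7 and 6.45% of all genes), with a median of 1.30 against 0.60, and 28 did not overlap (8.28%). Rpl18 was at 5.45 to 7.28 in MoMac-DC-like and 3.14 to 4.09 in KC-like mice, a difference of 2.72 ± 0.29 (limma adjusted p = 9.86e-10). Rpl7 differed by 2.31 and did not overlap either. MoMac-DC-like cells had the most reads, with a median of 216053 against 96037 in KC-like cells, and among cells with at least 2000 genes 37 rows were higher. With RPKM averaged before the logarithm, 8 were. The 37.7% of all genes belongs to the main fit. The shares in these alternatives are not reported here, so their counts cannot be set against all genes. By its markers the class held 14 cells with neutrophil and 19 with plasmacytoid markers. Without them, an alternative chosen after seeing the data, Rpl18 differed by 3.44 from KC-like cells.

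Within the T-cell-like cells, 66 cells with Cd8a or Cd8b1 and no Cd4 were compared with 94 cells with Cd4 and neither Cd8 gene. The summed share of CD8 cells was 6.44, 6.18 and 4.98% in ND1 to ND3 and 3.72, 3.09 and 4.55% in HFD1 to HFD3. CD4 cells gave 3.76, 4.07 and 3.83% and then 3.79, 2.73 and 3.38% in the same order. CD8 cells were higher in 5 of 6 mice, all but HFD1. A mouse value rested on 4 to 23 CD8 and 3 to 25 CD4 cells, with the fewest of both in HFD3, and no test was run on these sums. In limma 0 of 65 tested rows passed in either direction (0.045% of all 4446 genes higher and 0.0225% lower), 4 rows had an unadjusted p under 0.05, and the median difference was 0.44 against 0.04 for all genes. Rpl12 (1.35 ± 0.43) and Rpl7a (1.43 ± 0.49) came closest, each with a limma adjusted p of 0.718. T-cell-like cells with more genes of naive than of effector T cells had summed shares of 5.16, 7.99 and 5.28% in ND1 to ND3. They had 6.15, 4.14 and 4.51% in HFD1 to HFD3. Those with more effector genes gave 3.48, 4.26 and 3.71% and then 3.29, 2.26 and 3.54%, lower in every mouse. Cells with equal numbers of both had a mean of 3.72% over mice. The difference in this split, and its relation to growth or activation, was not tested.

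The diets were compared within each main class, 3 mice against 3. No row passed in any class: 0 of 48 tested in KC-like, 0 of 49 in endothelial-like, 0 of 65 in T-cell-like and 0 of 60 in B-cell-like cells by limma. Of all genes, 0.0299% were lower on the high-fat diet in KC-like cells and 0.0% in the other classes, and 0.0% were higher in each. At an unadjusted p under 0.05 there were 0, 0, 3 and 1 rows, while 2.30, 3.62, 3.42 and 3.80% of all genes were under that p. With a mean-variance trend in limma the counts of rows that passed were also 0. In simulated data of the T-cell-like comparison with 3726 genes, 15.7% of the 140 genes changed by 2 on the log2 scale were recovered, and in separate runs with 3739 and 3768 genes none of those changed by 1 or by 0.5 were. Without HFD3, 1 row was lower on the high-fat diet in endothelial-like cells, Rps21, a small subunit protein (-1.83 ± 0.51, limma adjusted p = 0.037), which is named after its value was seen.

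The differences leaned to lower values on the high-fat diet, as those of all genes did. The median was -0.29 for the rows and -0.21 for all genes in KC-like cells, and -0.25 and -0.17 in endothelial-like cells. It was -0.44 and -0.28 in T-cell-like cells, and -0.32 and -0.29 in B-cell-like cells. This rested on HFD2: without that mouse the medians of the rows were 0.16, 0.13, -0.06 and 0.03. Rows with all high-fat diet mice below all normal diet mice numbered 2 in KC-like (4.52% of all genes), 1 in endothelial-like (6.52%), 10 in T-cell-like (6.63%) and 5 in B-cell-like cells (9.64%), and no row was above in the same sense (0.688, 0.743, 0.296 and 0.331%).

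In T-cell-like cells Rpl7l1 was at 2.44, 1.39 and 1.98 in ND1 to ND3 and at 0.56, 0.66 and 0.67 in HFD1 to HFD3. The groups did not overlap, and the difference was -1.31 ± 0.54 (limma p = 0.0216, adjusted p = 0.999). Rpl7l1 also did not overlap in KC-like cells, with 1.30, 1.47 and 1.30 against 0.87, 0.69 and 1.07 (-0.49 ± 0.51), but with RPKM averaged before the logarithm the difference there was 0.83. In B-cell-like cells it was at 1.26, 1.28 and 1.64 against 0.56, 0.74 and 1.27. The ranges overlapped there and in endothelial-like cells.

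The other rows without overlap that had the smallest p were Rps27a and the first row of Rpl30 in T-cell-like cells (-0.94 and -0.93), and Rps18 in KC-like cells (-0.84, but 0.0069 in cells with at least 2000 genes). In endothelial-like cells it was Rpl8, at 9.20, 8.61 and 8.69 on the normal diet and 8.19, 7.39 and 8.36 on the high-fat diet (-0.86 ± 0.44). In B-cell-like cells they were Rpl7 (-0.89), Rpl6 (-0.76) and Rpl17 (-0.65). Each of these had a limma adjusted p of 0.995 or more. The summed share was 1.22 ± 0.09% on the normal and 1.21 ± 0.34% on the high-fat diet in KC-like cells (SD, n = 3 mice), and 1.32 ± 0.18 and 1.17 ± 0.45% in endothelial-like cells. It was 4.39 ± 0.66 and 3.40 ± 0.60% in T-cell-like cells, and 4.11 ± 0.41 and 3.54 ± 0.54% in B-cell-like cells. Without HFD2 the high-fat diet means were 1.33% in KC-like, 1.36% in endothelial-like, 3.75% in T-cell-like and 3.81% in B-cell-like cells.

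Whether the diet difference itself varied between classes was tested with interaction terms for the 6 pairs of the main classes. In limma 0 of the 55 rows passed in any pair (0.0% of all genes), and between 0 and 3 rows had an unadjusted p under 0.05.

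Other genes of the translation machinery were taken from lists that were chosen with earlier results of these data known. Their counts are thus a description and no independent support. They are given between T-cell-like and KC-like cells unless stated. The 5 ribosomal proteins taken from outside the symbol rule, Rplp0, Rplp1, Rplp2 and Fau among them, were all higher, with a median difference of 2.10. Rplp2, part of the stalk that recruits elongation factors, went from 6.39 to 9.62 (3.23 ± 0.24, limma adjusted p = 3.23e-13), and Rplp0 differed by 2.10 and Fau by 1.94. Of the translation factors and other TOP mRNAs, 15 of 16 tested were higher and 0 lower (45.9 and 15.9% of all genes), with a median of 2.36 against 0.46, led by the elongation factor subunit Eef1b2 (3.18), Tpt1 (2.61), Btf3 (2.92) and Eef1g (2.57). All 5 and 12 of the 16 genes, respectively, were also higher in B-cell-like than in KC-like cells (24.9% of all genes).

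The ribosome biogenesis genes, which make and process ribosomal RNA, were lower in level, and only 10 of 28 were tested. Of these 9 were higher in T-cell-like cells (45.9% of all genes; median 1.13 against 0.46), with Npm1 at 2.45, Ncl at 1.42, Eif6 at 1.49 and Nop58 at 1.09. In B-cell-like cells 4 of the 10 were higher (24.9% of all genes; median 0.47 against 0.06), and the difference of Ncl was -0.09 (limma adjusted p = 0.779). Of the 77 mitochondrial ribosomal protein genes, which serve the separate ribosome of mitochondria, 39 were tested, with 21 higher and 1 lower in T-cell-like cells (45.9 and 15.9% of all genes; median 0.56 against 0.46), with Mrpl24 (1.46), Mrpl9 (1.15), Mrpl52 (1.85) and Mrpl33 (1.47) among them. In B-cell-like cells 4 were higher and 3 lower (24.9 and 20% of all genes; median 0.04), and Mrpl52 and Mrpl33 were among those lower.

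Of 11 regulators of ribosomal protein mRNAs, 4 were tested. Yy1, a transcription factor, was higher in T-cell-like cells (0.53 ± 0.22, limma adjusted p = 0.0379), and Eif4ebp1, a translation repressor controlled by mTOR, was lower (-1.18 ± 0.33, limma adjusted p = 0.00264). Of all 4073 genes tested, 1869 were higher and 646 lower. The ranges overlapped for Yy1 (0.57 to 1.74 in T-cell-like and 0.0 to 1.49 in KC-like mice). They also did for Eif4ebp1 (0.54 to 1.38 and 0.62 to 4.70). Myc (0.51) and Eif4ebp2 (0.44) did not pass. No gene of the 5 lists passed between diets in any of the 4 classes.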

How the data were processed

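Single liver non-parenchymal cells of 6 mice (3 per diet) were measured by Smart-seq2. Reads had been aligned by STAR (genome mm10), with multi-mapping reads dropped, and cells of low quality and doublets had been removed. The authors deposited RPKM values, which rpkmforgenes computed on RefSeq genes. No counts were used here.

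Cells were clustered (scikit-learn 1.9.0, Python 3.11.15) on 1000 variable genes detected at 1 RPKM or more in at least 10 cells, without the ribosomal protein genes and the other gene lists, with 20 principal components, 15 neighbours and 12 clusters, and named from fixed markers. Marker assignment of single cells counted markers at 100 RPKM or more, a level chosen after seeing the data. Values were log2(RPKM + 1), averaged per class and mouse, for classes with at least 5 cells in a mouse (3 for smaller classes and for CD8 and CD4 cells). Differences were tested with limma 3.58.1 (R 4.3.3) over all genes with a mean of at least 1, with Benjamini-Hochberg adjustment and an adjusted p threshold of 0.05. The mouse was a block between classes, and diets were compared without a block. The test was checked on simulated data, where 16.5% of 200 genes changed by 1 and 93% changed by 2 were recovered between T-cell-like and KC-like cells (4073 genes). Read totals were estimated from the steps between RPKM values, which gave 56 of 60 simulated cells within 5%. Between diets, p-values measure the spread between mice. Between classes they measure the spread that remains once the mouse block is accounted for.

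Named genes were the 6 highest rows, up to 3 with the smallest adjusted p per direction and comparison, the copies with their partners, rows without overlap between diets, the 6 rows with the widest range after centring, rows with a mean under 1, and up to 4 genes per other list. The members and lists were chosen with earlier results of these data known. Alternatives were another pseudocount (0.1), no level filter, averaging before the logarithm, rescaling, centring, a limma trend, no block, cells with at least 2000 genes, other cell classes and leaving out each mouse. Some genes and results that these rules cover are not reported here. Columns not matched to a sample numbered 0.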

Additional observations from a re-analysis of the deposited data

Results flagged for a closer look

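The summed share of the 84 rows in erythrocyte-like cells was 0.508% in ND2 and 0.244, 0.241 and 0.225% in ND1, ND3 and HFD1, the 4 mice with at least 3 such cells. The gap of ND2 to the nearest mouse was 0.932 of the whole range, above Dixon's critical value for a sample far from the other 3. ND2 had 6 such cells, and chance alone marks about 5% of groups in this way.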

How the results depend on the processing

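With each cell centred on the median of its own rows, which takes about 5.13 from a T-cell-like cell and 0.0 from a typical KC-like or endothelial-like cell, the counts of rows higher and lower were 0 and 46 for T-cell-like against KC-like cells, 0 and 41 for T-cell-like against endothelial-like, 0 and 30 for B-cell-like against KC-like, and 1 and 22 for B-cell-like against endothelial-like cells. They were 0 and 8 for T-cell-like against B-cell-like, 14 and 0 for NK-like against T-cell-like, and 0 and 48 for MoMac-DC-like against KC-like cells, and 5 rows were higher in KC-like than in endothelial-like cells. Named values that reversed under centring, between T-cell-like and KC-like cells, were Rpl8 -1.33, Rps14 -1.44, Rps9 -1.92, Rpl13a -0.88, Rps3 -1.21, Rps7 -0.15, Rps10 -0.32, Rpl22l1 -1.10, Rpl22 -1.45, Rpl36al -1.41, Rpl39 -1.37, Rpl3 -0.80, Rpl7l1 -3.68, Rpl7 -0.27, Rps4x -0.61, Rpl27a -3.16, Rps25 -2.99, Rpl11 -2.64 and Rps27a -2.58. Others were Rpl18 -0.16 and Rpl39 -0.33 (T-cell-like against endothelial-like), Rps10 -0.0057 (B-cell-like against KC-like), Rps3a1 -0.028 (B-cell-like against endothelial-like), Rpsa 0.00038 (NK-like against T-cell-like), Rpl7 -0.30 (MoMac-DC-like against KC-like), and Rpl6 0.11 and Rpl17 0.21 (diet in B-cell-like).

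Rows higher in T-cell-like than B-cell-like cells numbered 2 with a difference of at least 1, 5 without the replicate block, 1 with averaged RPKM, 10 in cells with at least 2000 genes, 7 with 10 principal components, and 11 to 21 with 1 mouse left out (11 without ND2). The 1 lower row became 0 with a difference of at least 1, a trend, no replicate block, a pseudocount of 0.1, no filter, averaged RPKM or at least 2000 genes, 2 with 10 principal components, and 0 to 1 with 1 mouse left out. Rows higher in KC-like than endothelial-like cells numbered 5 with a difference of at least 1, 3 without the replicate block, 8 with averaged RPKM, 7 with either rescaling, 20 with 10 principal components, and 7 to 17 with 1 mouse left out (7 without ND3). Without the level filter, 1 row was lower in T-cell-like and 2 in B-cell-like than in endothelial-like cells, 0 in T-cell-like than in B-cell-like, and 1 in KC-like than in endothelial-like cells. NK-like against T-cell-like cells had 21 lower rows without the replicate block and 27 to 45 with 1 mouse left out (27 without ND1), and MoMac-DC-like against KC-like cells had 8 higher rows with averaged RPKM. Between diets 0 to 1 rows were lower in endothelial-like cells with 1 mouse left out (1 without HFD3). With Rplp0, Rplp1, Rplp2, Fau and Gnb2l1 added, a list chosen after seeing the data, the shares were 4.53% (B-cell-like), 4.77% (T-cell-like), 2.55% (MoMac-DC-like), 2.68% (NK-like) and 1.52% (KC-like). Between T-cell-like and KC-like cells, Rpl7l1 ranged from -0.028 to 0.28 with 1 mouse left out (reversed without ND1) and was -0.84 with averaged RPKM, Rps27l ranged from -0.26 to 0.049 (reversed without ND1) and was 0.059 with marker assignment, and Rpl27a to -0.25 with averaged RPKM. Between diets in KC-like cells, Rps18 reversed to 0.0069 in cells with at least 2000 genes and Rpl7l1 to 0.83 with averaged RPKM. Apart from centring, whose construction is given above, the cause of these changes was not tested. The share of all genes called in each setting is not reported here, so a changed count cannot be set against all genes.

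Of 12 correlations of same-numbered mice of the 2 diets over the 4 classes, 4 exceeded 0.1 (-0.10 to 0.21). In B-cell-like cells all 3 did (0.21, 0.10 and 0.13) and every mouse correlated best with its own number, a hint from the data and not the design, and in T-cell-like cells 1 did. With the replicate number as a block, 0 rows passed between diets in each class. Depth limits rows of low level, as 1 read on a gene of 1000 bases was worth 7.79 RPKM at the median depth.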

Other observations

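Hepatocyte-like cells, in the 4 mice with at least 3 of them, had summed shares of 1.13% in ND1 and 0.449, 0.403 and 0.598% in HFD1 to HFD3. With erythrocyte-like cells (mean 0.305%) they were the classes with the lowest means. Erythrocytes are known to lose their ribosomes as they mature.

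Within the MoMac-DC-like class, 14 cells with neutrophil markers had shares of 0.777, 1.15 and 0.364% in ND2, ND3 and HFD1. The 19 cells with plasmacytoid dendritic cell markers had 2.66, 2.51, 1.84 and 3.14% in ND1 and HFD1 to HFD3, and the other 52 cells had a mean of 2.35% over the 6 mice (1.76 to 2.72%). These subsets were chosen after seeing the data and were not tested.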
